A study of Mus musculus with 8 samples.

Results

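The clustered protocadherins are cell adhesion proteins of the cadherin superfamily, encoded by 3 neighbouring gene clusters (alpha, beta and gamma) on mouse chromosome 18. The genes described here are the protein-coding rows of the count table whose symbols begin with *Pcdha*, *Pcdhb* or *Pcdhg* followed by a number, or with *Pcdhac*, *Pcdhga*, *Pcdhgb* or *Pcdhgc*. These were 57 of the 54532 rows: 14 alpha, 22 beta and 21 gamma members. *Pcdhgb8* has such a name too, but its row is listed as a polymorphic pseudogene and was not counted as a member. The symbol *Pcdha11* stands on 2 rows, ENSMUSG00000007440 and ENSMUSG00000102206, which were kept apart.

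The data are bulk RNA-seq libraries of the mouse retina, 4 from *Mettl3*-CKO and 4 from control pups, at postnatal day 7 according to the labels and the results of the study (its methods give a day earlier). *Mettl3* encodes the catalytic subunit of the complex that deposits N6-methyladenosine (m6A) on mRNA. The *Mettl3*-CKO mice carried *Six3-Cre* and floxed *Mettl3* on both alleles. Cre under the *Six3* promoter is active in retinal progenitor cells, and the study describes loss of the protein in the central retina, so that cells elsewhere in the retina may keep the gene. Which alleles the controls carried, whether they were littermates, and whether a sample was 1 retina or several are not given in the sources used here. The p-values below therefore measure the spread between these samples. Where the values of single libraries are listed, they run from replicate 1 to replicate 4.

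In the alpha and gamma clusters, each variable exon has its own promoter and is spliced to constant exons that all members of its cluster share, whereas a beta gene usually consists of a single exon without a constant part. A neuron transcribes only some of these genes, chosen largely at random, while the C-type members (*Pcdhac1*, *Pcdhac2*, *Pcdhgc3*, *Pcdhgc4* and *Pcdhgc5*) are chosen by other rules and often more widely. The proteins bind copies of themselves on the opposite membrane, which gives neurites an identity by which branches of the same cell avoid each other. In the retina, the gamma cluster is known for self-avoidance of starburst amacrine cell dendrites and for survival of retinal interneurons and ganglion cells.

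Total counts ranged from 16227095 to 20281517 per library, of which 9130 to 11298 fell on the 57 members. *Mettl3* had 24.1 ± 3.97 CPM (counts scaled to the library total after TMM correction, SD, n = 4) in *Mettl3*-CKO and 31.2 ± 2.24 CPM (SD, n = 4) in control retinas, and the groups overlapped (log2 fold change -0.38, SE 0.12, adjusted p = 0.0602, edgeR's quasi-likelihood test). With DESeq2 its adjusted p was 0.032. Control replicate 4 had far more lens RNA than any other library: the 10 lens markers summed to 2348 CPM there, and the range over the *Mettl3*-CKO libraries was 5.74 to 16.0 CPM. Control replicate 1 stood apart over all genes. The chi-square per gene between its counts and those of controls 2, 3 and 4 was 23.6, 34.3 and 41.2. Pairs among those controls had 5.01 to 14.7. Leaving it out raised the genes called lower from 729 to 1289 and those called higher from 1168 to 1882 (edgeR). It also stood apart within the protocadherins, as described with the cluster sums. For members described singly below, values are also given where leaving out control replicate 1 or 4 moved them by over 1.5 times or changed a call.

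The clusters lie one after the other on the plus strand of chromosome 18 of GRCm38: alpha from 36930184 to 37187661, beta from 37264938 to 37524479 and gamma from 37661793 to 37841873. Because the rows overlap, the part of each gene that no other gene covers (private exon bases) was measured in the GENCODE vM21 annotation, whose exon lengths equal the deposited lengths for all 57 members. All 14 alpha members shared exon bases with other genes, and a median of 46.4% of their exon bases was private. All 21 gamma members did so too, with a median of 54.8% private. Of the 22 beta members, 19 were private over their full length, and the median private length was 3714 bases.

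The counts on shared bases were looked at directly. Across the annotation, 1212 genes had no private base, and 1157 of them (95.5%) had a count of 0 in every library. Inside the locus, 6 of the 7 other genes without a private base had no count, among them the read-through transcripts *Gm42416* and *Gm37013*. Across the genome, the 26 protein-coding genes with at least 500 bases that are private only if strand is used had a median of 0 counts summed over the libraries, where the 20322 protein-coding genes with at least 500 private bases had a median of 1300. The counts of alpha and gamma members therefore stand for their variable exons and other private parts far more than for the constant exons, and they say little about the summed output of a constant region.

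For this reason, levels are given on a pair of length scales. FPKM divides the count by all exon bases of the gene (counts per kilobase, scaled to the library total), and CPM per private kilobase divides it by the private bases only. The private scale was added after the data had been seen, and it is approximate, since a fragment that reaches from a variable into a constant exon can still be counted. The order of the members depended on the scale. On FPKM over the 8 libraries, *Pcdhb17* led with 8.72, followed by *Pcdhb20* with 6.86 and *Pcdhgc4* with 5.04. *Pcdhgc3* was 11th with 3.53 FPKM.

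Per private kilobase, *Pcdhgc3* came first, with 9.80 ± 1.17 CPM (SD, n = 4) in *Mettl3*-CKO and 11.6 ± 1.58 CPM (SD, n = 4) in control retinas. *Pcdhb17* was next, with 8.03 ± 0.409 and 9.47 ± 1.18 CPM per private kilobase (SD, n = 4 each). These neighbours could not be separated in the control libraries, where *Pcdhgc3* ranged from 9.28 to 12.9 and *Pcdhb17* from 8.51 to 11.2 CPM per private kilobase. *Pcdhgc4* (8.14 over all 8 libraries), *Pcdhgb6* (7.04), *Pcdhb20* (6.88) and *Pcdhac2* (6.72) followed. *Pcdhga11*, which has only 1256 private bases, moved from 23rd place by FPKM to 7th place.

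**Figure D1:**
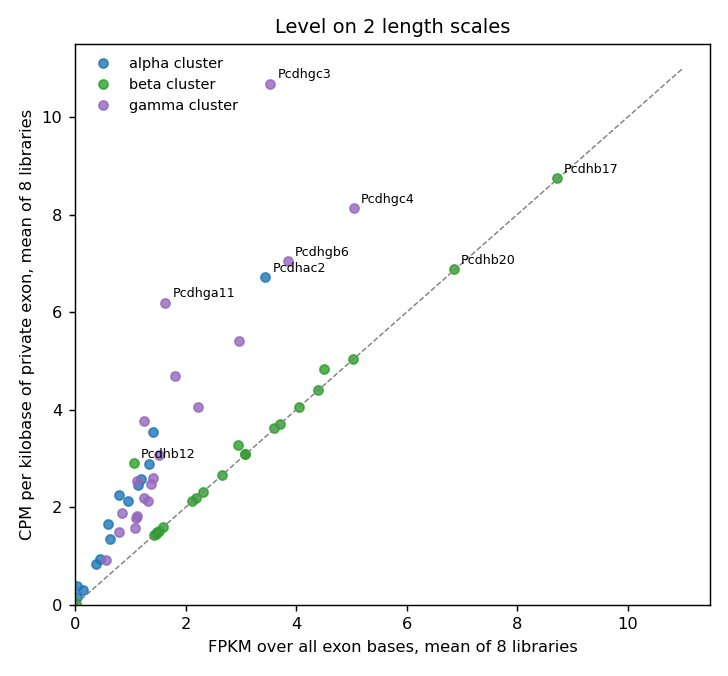
Mean level of each member with a private base over the 8 libraries, in FPKM over all exon bases (horizontal axis) and in CPM per kilobase of private exon (vertical axis), with a dashed line where both are equal. Most beta members lie on the line, whereas alpha and gamma members lie above it, and *Pcdhgc3* moves from 3.53 FPKM to the highest private level, 10.7.

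Across the clusters, the median member had 0.707 FPKM in alpha, 2.80 FPKM in beta and 1.32 FPKM in gamma. In alpha, *Pcdhac2* (3.44 FPKM) stood above the next members *Pcdha7* (1.41 FPKM) and *Pcdha3* (1.33 FPKM). Its share of the alpha counts was 26.3% to 30.5% in the *Mettl3*-CKO and 27.7% to 32.1% in the control libraries.

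**Figure D2:**
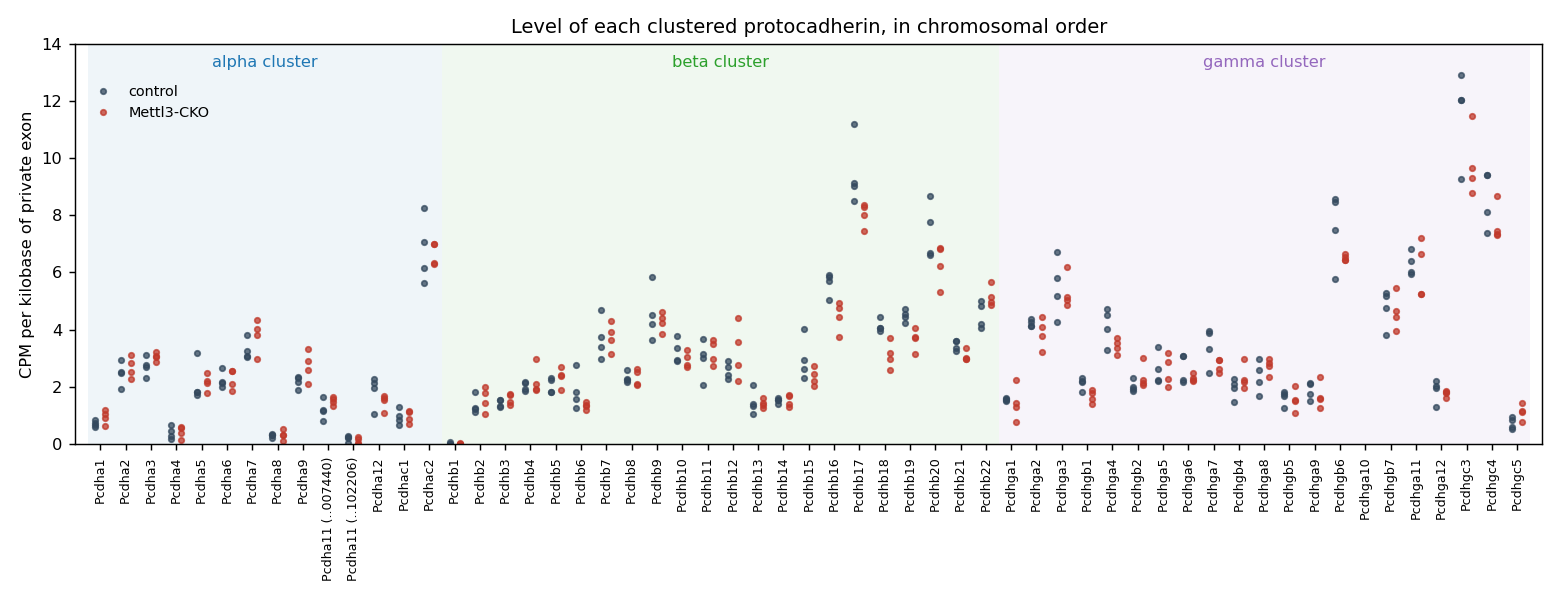
Level of each member in CPM per kilobase of private exon (vertical axis) in chromosomal order (horizontal axis), with 1 point per library, control on the left and *Mettl3*-CKO on the right of each position. *Pcdhga10* has no private base and no point, and the groups overlap for all members shown except *Pcdhb16* to *Pcdhb19*.

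Of the 57 members, 53 passed edgeR's filter on low counts and were tested. The other 4 were *Pcdha4* (1 to 5 counts per library), the *Pcdha11* row ENSMUSG00000102206 (0 to 6 counts), *Pcdhb1* (0 to 3 counts) and *Pcdhga10* (0 to 5 counts). *Pcdhga10* has 0 private bases, since the antisense gene *Gm26672* covers what its cluster mates do not, and its low count cannot be read as low RNA. *Pcdha4* has 404 private bases. In *Pcdhb1*, by contrast, all 2588 exon bases are private. Its counts did not exceed the detection floor of 3 counts in any library, which corresponds to between 0.148 and 0.185 CPM.

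*Mettl3* deficiency was accompanied by few differences in this family. At an adjusted p under 0.05 in edgeR's quasi-likelihood test, 1 of the 53 tested members was downregulated in *Mettl3*-CKO retinas (*Pcdhb18*) and 0 were upregulated, 1.89% in all, whereas 10.5% of the 17998 genes tested were called (4.05% lower and 6.49% higher). In the range of mean counts that the tested members span, 10.7% of 10540 genes were called. At an unadjusted p under 0.05, 6 members were lower and 1 was higher, against 24.6% of all genes in either direction. DESeq2 called 2 members, *Pcdhb16* and *Pcdhb18*, both lower, where it called 14.2% of all genes it could adjust.

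The intervals show how large a change the data still allow. The 95% interval of the fold change lay within 2-fold for 51 of the 53 tested members, and for 80.8% of all genes. The exceptions were *Pcdha8*, with an upper bound of 1.04 on the log2 scale, and *Pcdhgc5*, with an upper bound of 1.13. For 35 members the interval lay within 1.5-fold. The log2 fold changes ran from -0.47 to 0.63, with a median of -0.04 (all genes -0.01) and a median absolute value of 0.17 (all genes 0.18).

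By cluster, the estimates were above 0 for 10 and below 0 for 2 of the 12 alpha members tested, with a median log2 fold change of 0.11. Of the 21 beta members, 10 were above and 11 below 0 (median -0.06). Of the 20 gamma members, 4 were above and 16 below 0 (median -0.11). Among all genes, 51.8% were below 0. In alpha and gamma, 0 members were called by edgeR and 0 by DESeq2, and at an unadjusted p under 0.05 edgeR gave 0 alpha and 2 gamma members (*Pcdhgb1* and *Pcdhgc5*). The difference in direction between the clusters was not tested.

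**Figure D3:**
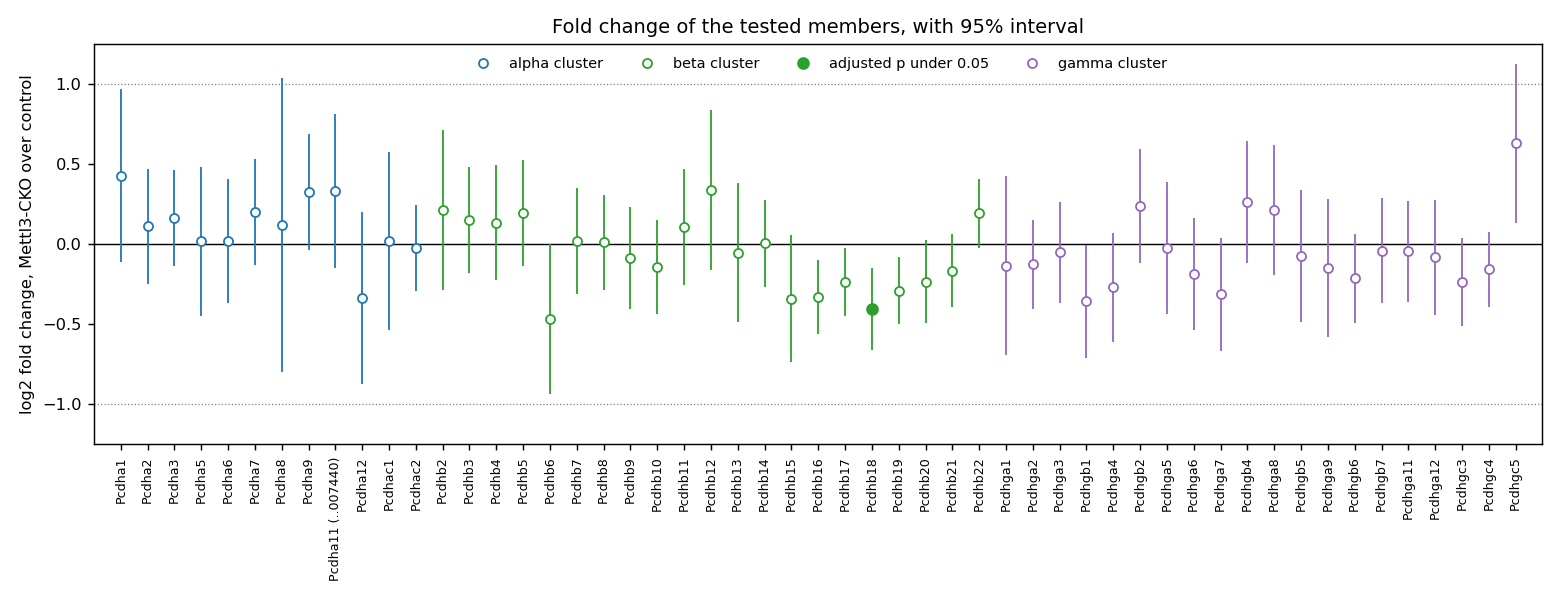
Log2 fold change (*Mettl3*-CKO over control, vertical axis) of the 53 tested members in chromosomal order, with 95% intervals from edgeR and dotted lines at a 2-fold change. The filled point marks *Pcdhb18*, the only member called in this fit, and the intervals of *Pcdha8* and *Pcdhgc5* reach past the upper line.

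The called gene, *Pcdhb18* (ENSMUSG00000048347, 37489465 to 37494505, all 5041 exon bases private), belongs to the beta cluster, whose proteins have no constant cytoplasmic domain. It had 13.1, 16.0, 15.0 and 18.7 CPM in the *Mettl3*-CKO and 22.3, 20.4, 20.5 and 19.9 CPM in the control libraries. Every *Mettl3*-CKO library was below every control library, with replicate 4 the nearest. The means were 15.7 ± 2.34 and 20.8 ± 1.04 CPM (SD, n = 4 each), a log2 fold change of -0.41 (SE 0.12, adjusted p = 0.0473, edgeR). The call was close to the threshold: it was lost in 6 of 8 fits that left out a library, where the adjusted p reached 0.15, and kept without *Mettl3*-CKO replicate 4 (0.0248) and without control replicate 1 (0.0486). The estimate stayed between -0.50 and -0.32 in these fits. The number of all genes called lower moved as well, from 729 in the main fit to between 185 and 1289 in these fits.

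The groups did not overlap for 4 of the 53 members, against 17.4% of all genes tested, and all 4 are neighbours: *Pcdhb16*, *Pcdhb17*, *Pcdhb18* and *Pcdhb19*, each lower in *Mettl3*-CKO. *Pcdhb17*, the beta member with the highest level, had 34.8, 37.3, 38.6 and 39.0 CPM in the *Mettl3*-CKO and 52.1, 42.6, 42.1 and 39.6 CPM in the control libraries. The highest *Mettl3*-CKO library came within 1 CPM of the lowest control library, and control replicate 1 was above the rest (log2 fold change -0.24, SE 0.10, adjusted p = 0.156, and -0.15 with an adjusted p of 0.239 without that control). *Pcdhb16* had 23.3 ± 2.75 and 29.4 ± 2.12 CPM (SD, n = 4 each), a log2 fold change of -0.33 (SE 0.11, adjusted p = 0.0666 in edgeR and 0.0441 in DESeq2). *Pcdhb19* had 26.1 ± 2.72 and 31.9 ± 1.48 CPM (SD, n = 4 each), a log2 fold change of -0.29 (adjusted p = 0.0755, edgeR).

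The estimates were also below 0 for the next genes on both sides, *Pcdhb15* (log2 fold change -0.34, adjusted p = 0.275), *Pcdhb20* (-0.24, adjusted p = 0.248) and *Pcdhb21* (-0.17, adjusted p = 0.364), so that 7 adjacent beta genes lay on the same side. Some of these estimates rested on single controls: *Pcdhb15* was at -0.16 without control replicate 4, and *Pcdhb20* at -0.15 without control replicate 1 and at -0.08 without control replicates 1 and 4 together. *Pcdhb21* was at -0.11 without both. The run was chosen after its values had been seen, and it carries no test. Its summed level was 128, 147, 149 and 155 CPM in the *Mettl3*-CKO and 189, 172, 164 and 178 CPM in the control libraries. The beta genes are close paralogs, and how reads that match several of them were treated is not stated, so these 7 counts may not be independent of each other. The groups did not overlap in this sum, in which *Mettl3*-CKO replicate 1 was lowest and control replicate 1 highest. The means were 145 ± 11.3 and 176 ± 10.4 CPM (SD, n = 4 each), a log2 ratio of -0.28 (-0.25 without control replicate 1 and -0.22 without control replicates 1 and 4 together). The other 15 beta members summed to 142 ± 9.02 and 137 ± 15.7 CPM (SD, n = 4 each), a log2 ratio of 0.05 (0.13 without control replicate 1 and 0.17 without control replicates 1 and 4 together), and overlapped.

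*Pcdhb22*, the last gene of the cluster, lay on the other side of 0, with 31.8 ± 2.20 and 27.8 ± 2.88 CPM (SD, n = 4 each) and a log2 fold change of 0.19 (SE 0.10, adjusted p = 0.259), or 0.32 (adjusted p = 0.0762) without control replicates 1 and 4 together. It accounted for 11.1 ± 1.10% of the beta counts in *Mettl3*-CKO and 8.89 ± 0.652% in control libraries (SD, n = 4 each), and the run from *Pcdhb15* to *Pcdhb21* for 50.3 ± 2.88% and 56.2 ± 1.34% (SD, n = 4 each). These shares are read from the same counts and are not independent of each other. *Pcdhb6* had the lowest log2 fold change of all members, -0.47 (SE 0.22, adjusted p = 0.202). Control replicate 1 had 10.4 CPM of it, and the other 3 controls had between 4.77 and 6.77 CPM. Without that control the log2 fold change was -0.21 (adjusted p = 0.423).

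**Figure D4:**
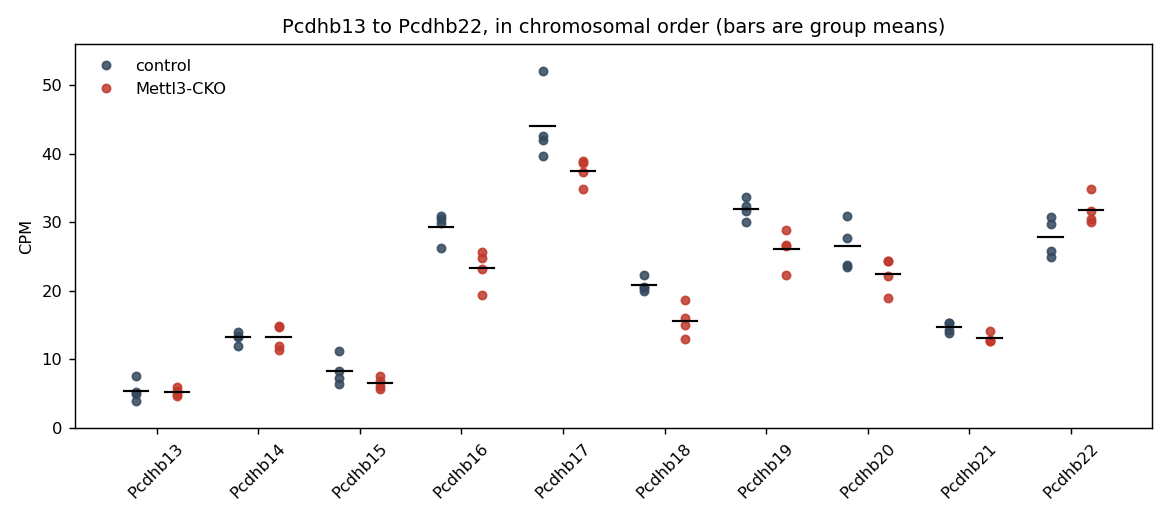
CPM of *Pcdhb13* to *Pcdhb22* in chromosomal order, with 1 point per library and a bar at the mean of each group. The points of the groups do not overlap at *Pcdhb16*, *Pcdhb17* (34.8 to 52.1 CPM), *Pcdhb18* and *Pcdhb19*, and *Pcdhb22* has the higher mean in *Mettl3*-CKO.

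None of the 5 C-type members passed the test. *Pcdhac2*, known for the even spacing of serotonergic axons, had 19.2, 19.1, 21.1 and 21.2 CPM in the *Mettl3*-CKO and 25.0, 21.4, 17.0 and 18.7 CPM in the control libraries. The *Mettl3*-CKO libraries all lay within the wider range of the controls (log2 fold change -0.03, 95% interval -0.30 to 0.24). *Pcdhac1* was low, at 2.44 ± 0.567 and 2.40 ± 0.665 CPM (SD, n = 4 each), with an interval from -0.54 to 0.58 on the log2 scale. The sign of the estimate of both genes turned when single libraries were left out.

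*Pcdhgc4*, the gamma isoform that neuronal survival depends on, had 25.4, 30.2, 25.5 and 25.9 CPM in the *Mettl3*-CKO and 28.2, 32.8, 32.8 and 25.6 CPM in the control libraries. The groups overlapped, replicate 2 being the highest of the *Mettl3*-CKO libraries, and the log2 fold change was -0.16 (SE 0.11, adjusted p = 0.398, 95% interval -0.39 to 0.07), or -0.30 without control replicates 1 and 4 together. *Pcdhgc3*, an isoform known to promote dendrite branching, had 16.9, 20.9, 16.0 and 17.6 CPM in the *Mettl3*-CKO and 16.9, 21.9, 23.5 and 21.9 CPM in the control libraries. Its groups overlapped because control replicate 1 was as low as the *Mettl3*-CKO libraries (log2 fold change -0.24, SE 0.13, adjusted p = 0.271). Without that control it was called, with a log2 fold change of -0.33 and an adjusted p of 0.0498 (edgeR).

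*Pcdhgc5*, whose protein binds a subunit of GABA-A receptors, had the highest log2 fold change of all members. It had 6.58, 3.60, 5.31 and 5.18 CPM in the *Mettl3*-CKO and 2.46, 3.86, 4.25 and 2.78 CPM in the control libraries. Of the *Mettl3*-CKO libraries 3 were above all controls, and replicate 2 lay among them. The means were 5.17 ± 1.22 and 3.34 ± 0.853 CPM (SD, n = 4 each), a log2 fold change of 0.63 (SE 0.23, 95% interval 0.13 to 1.13) that did not pass the adjustment (adjusted p = 0.104). It was called in 0 of the 8 fits that left out a library, and without control replicates 1 and 4 together the estimate was 0.35 (adjusted p = 0.378). At 0.557 FPKM it was far below *Pcdhgc4* and *Pcdhgc3* of the same cluster.

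Among the remaining abundant members, *Pcdhgb6* was called only where control replicate 1 was left out. It had 16.5, 16.5, 16.8 and 17.0 CPM in the *Mettl3*-CKO and 14.8, 21.7, 22.0 and 19.2 CPM in the control libraries. The *Mettl3*-CKO libraries lay within a narrow band, with control replicate 1 below and the other controls above it. The log2 fold change was -0.22 (SE 0.13, adjusted p = 0.329), and -0.33 (adjusted p = 0.0358) without control replicate 1. *Pcdha7* and *Pcdha3*, the highest of the alpha members that are not of the C type, had log2 fold changes of 0.20 (SE 0.15, adjusted p = 0.472) and 0.16 (SE 0.14, adjusted p = 0.519), and their groups overlapped. Without control replicate 4, *Pcdha3* was at 0.091.

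Summed over its members, the alpha cluster had 73.0, 62.5, 75.3 and 73.2 CPM in the *Mettl3*-CKO and 80.9, 66.7, 61.6 and 58.5 CPM in the control libraries. The beta cluster had 277, 276, 295 and 301 CPM in *Mettl3*-CKO and 348, 302, 287 and 315 CPM in control. The gamma cluster had 189, 191, 164 and 178 CPM in *Mettl3*-CKO and 170, 210, 207 and 187 CPM in control. The groups overlapped in each cluster, and control replicate 1 was the highest of the controls in alpha and in beta and the lowest in gamma.

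The log2 ratio of the group means was 0.08 for alpha, -0.13 for beta and -0.10 for gamma. The pooled SD between libraries of a group was 0.17, 0.09 and 0.12 on the log2 scale, so that only the beta ratio was larger than it. Without control replicate 1 the ratios were 0.19, -0.07 and -0.16, and without control replicates 1 and 4 together 0.15, -0.04 and -0.21. Gamma members held 28.4% of the member counts in control replicate 1, whereas the other 7 libraries ranged from 30.7% to 37.2%. Over all 57 members the sum was 539 ± 9.76 CPM in *Mettl3*-CKO and 574 ± 19.9 CPM in control retinas (SD, n = 4 each), lower by 6.11%. The groups did not overlap in this sum after TMM scaling (529 to 552 and 556 to 599 CPM), but did when only the library totals were used (529 to 558 and 555 to 584 CPM).

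**Figure D5:**
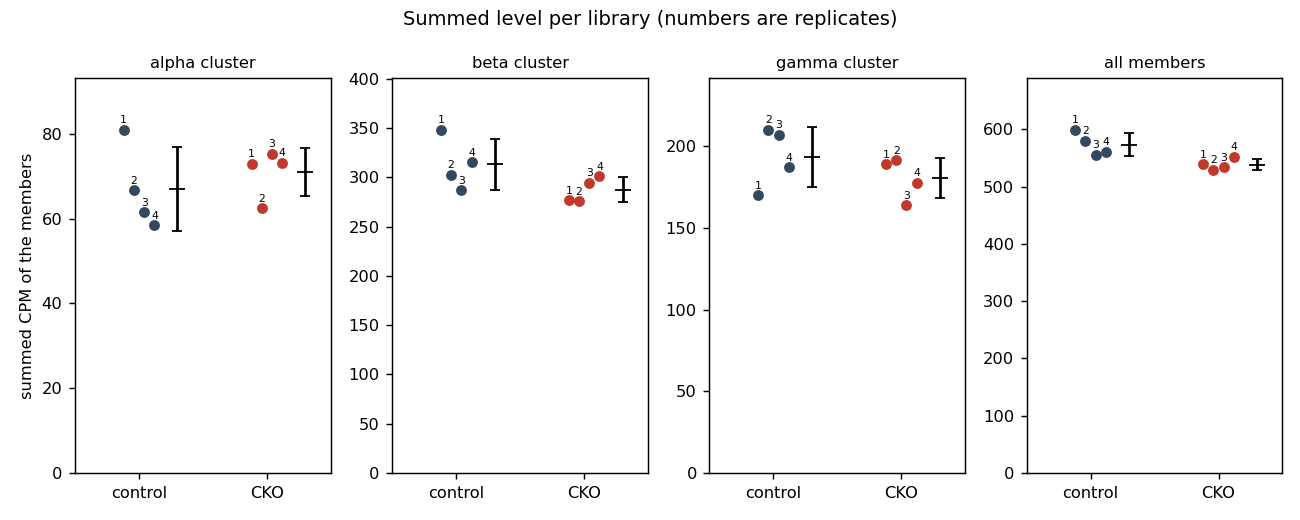
Summed CPM of the members of each cluster and of all members (vertical axes, each starting at 0) in the control and *Mettl3*-CKO libraries, with replicate numbers, and the mean with its SD as a bar at the side. Control replicate 1 is the highest control in alpha and beta and the lowest in gamma, and the groups are apart only for all members together (529 to 552 against 556 to 599 CPM).

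These are whole retinas, in which fewer cells of a type and less RNA per cell cannot be told apart. Markers of the neurons known to depend on these genes had overlapping sums over all 8 libraries. The 10 amacrine cell markers summed to 1741 to 2283 CPM in *Mettl3*-CKO and 1727 to 2241 CPM in control libraries, with 1 called lower (*Slc6a9*), and the 6 starburst amacrine markers to 216 to 301 and 213 to 236 CPM, with 0 called (edgeR). Most of the starburst sum came from *Sox2* (means of 117 and 87.3 CPM), *Megf10* (70.1 and 78.4) and *Isl1* (55.6 and 47.4). *Chat* had means of only 5.23 and 5.18 CPM, *Slc18a3* 6.35 and 5.76, and *Slc5a7* 1.91 and 2.38. The 8 retinal ganglion cell markers summed to 639 to 662 and 571 to 833 CPM, with 1 called higher (*Pou4f1*). This overlap rested on control replicate 1, which had the 833 CPM, while the other controls lay below all *Mettl3*-CKO libraries. Without control replicate 1, 2 of the 8 ganglion cell markers were called higher and 0 lower (4 at an unadjusted p under 0.05, edgeR). Rod markers did differ, with 5 of 7 downregulated and sums of 1273 to 2346 and 2493 to 3695 CPM, as did progenitor and cell cycle genes, with 2 of 8 upregulated and sums of 2596 to 3596 and 1928 to 2579 CPM. Of 8 blood vessel markers, 7 were downregulated, but their sums overlapped (537 to 632 and 560 to 653 CPM), since *Kdr*, which was not called, held most of the counts. Control replicate 1 was also high in vessel RNA, with 11.4 CPM of *Cdh5* against 2.94 to 4.22 in the other controls, and without it 6 of the 8 were downregulated. In the remaining lists, markers called higher and lower numbered 1 and 0 of 5 for horizontal cells, 1 and 1 of 5 for bipolar cells, 0 and 1 of 6 for cones, 1 and 1 of 7 for Müller glia, 0 and 3 of 5 for lens, 0 and 2 of 3 for erythrocytes, and 0 and 2 of 8 for astrocytes and microglia. Without control replicate 4, 0 lens markers were called (1 at an unadjusted p under 0.05, edgeR). Without control replicate 1, the astrocyte and microglia list had 3 higher and 2 lower. For comparison with all these lists, 10.5% of all tested genes were called in either direction (edgeR). The part of these cell types in the protocadherin values was not tested.

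Promoters of the clusters are brought to their enhancers by the insulator protein CTCF and the ring complex cohesin. Of the 11 genes of this machinery, 0 were upregulated and 1 was downregulated, *Mau2*, a subunit of the cohesin loader (178.6 ± 8.88 against 214.6 ± 6.53 CPM, SD, n = 4 each, log2 fold change -0.26, SE 0.07, adjusted p = 0.0358, edgeR). It was called in 2 of the 8 fits that left out a library. The promoters are also silenced by DNA and histone methylation. Of 15 genes of this group, 2 were upregulated and 0 downregulated. For both groups, the share called in either direction over all tested genes was 10.5% (edgeR).

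*Setdb1*, a histone H3K9 methyltransferase with known roles in the chromatin of these clusters, had 207, 179, 163 and 169 CPM in the *Mettl3*-CKO and 91.5, 107, 97.5 and 95.8 CPM in the control libraries. All *Mettl3*-CKO libraries were far above all controls (log2 fold change 0.88, SE 0.09, adjusted p = 0.000314, edgeR), and the call held in 8 of 8 fits that left out a library. *Rest*, a repressor of neuronal genes, had 57.8 ± 8.08 and 41.7 ± 5.08 CPM (SD, n = 4 each), a log2 fold change of 0.47 (SE 0.12, adjusted p = 0.0255, edgeR) that was called in 5 of these 8 fits. Whether these regulators bear on the clusters was not tested.

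Of 20 genes for cytoplasmic and membrane partners of the protocadherins, 2 were downregulated and 0 upregulated, where 10.5% of all tested genes were called in either direction (edgeR). *Ret*, a receptor tyrosine kinase that associates with clustered protocadherins, had 44.7 ± 3.57 and 56.1 ± 3.20 CPM (SD, n = 4 each, log2 fold change -0.33, adjusted p = 0.0348, edgeR, called in 2 of 8 fits that left out a library). *Prkca*, a protein kinase C that is also a marker of rod bipolar cells, had 47.5 ± 6.11 and 64.3 ± 8.71 CPM (SD, n = 4 each, log2 fold change -0.44, adjusted p = 0.0339, edgeR, called in 3 of 8 such fits), and its groups overlapped. Of 6 other molecules of neurite self-recognition, 0 were called.

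Protocadherins outside the clusters are single genes on other promoters. Of the 11 tested, 1 was upregulated and 1 downregulated, against 10.5% of all tested genes called in either direction (edgeR). *Pcdh15*, a protein of hair cell tip links that is also found in photoreceptors, had 156, 183, 173 and 227 CPM in the *Mettl3*-CKO and 340, 381, 317 and 374 CPM in the control libraries. All *Mettl3*-CKO libraries were below all controls (log2 fold change -0.93, SE 0.11, adjusted p = 0.000622, edgeR, called in 8 of 8 fits that left out a library). *Pcdh18* had 27.2 ± 5.33 and 18.7 ± 2.13 CPM (SD, n = 4 each, log2 fold change 0.54, adjusted p = 0.028, edgeR, called in 3 of 8 such fits). *Pcdh15* thus had a fold change beyond the range of all 53 tested cluster members, while rod markers moved the same way (their part in it was not tested).

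The locus holds 28 other rows, of which 9 were tested and 0 were called (10.5% of all tested genes, edgeR). *Taf7*, a subunit of a general transcription factor whose gene lies between the beta and gamma clusters, had a log2 fold change of 0.18 (SE 0.14, adjusted p = 0.484), and without control replicate 1, where it was highest, 0.36 (adjusted p = 0.0199, edgeR). *Gm26672*, which lies antisense to gamma members, had 0.69 (SE 0.38, adjusted p = 0.286), and *Pcdhgb8* had an adjusted p of 0.572. On exon bases that the antisense genes share with their partners, reads cannot be told apart without a stated strand setting. Shared bases mostly gave no count, as described above, so these counts stand mostly for private parts (1731 of 6918 exon bases in *Gm26672*).

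The letters of the m6A consensus, searched as GGACT on the sense strand of the longest protein-coding transcript, occurred in all 57 members and in 92.9% of 14277 tested protein-coding genes. The median density was 0.561 per kilobase in alpha, 1.24 in beta and 0.995 in gamma members, against 1.05 in all these genes. The median GC content was 47.3%, 46.0% and 53.1%, against 50.4%. Alpha transcripts had a median length of 5350 bases against 3220 in all genes, and a longer transcript has more chances to hold such a short word. A match describes the sequence and says nothing of methylation in these samples.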

How the data were processed

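The authors deposited a table of read counts per gene, as whole numbers, with gene coordinates and lengths. According to the methods and the processing notes, they mapped filtered paired-end reads to GRCm38 with HISAT2 and counted them with featureCounts. The strand setting and the treatment of reads on overlapping genes are not given in the sources used here. All 8 columns were matched to samples by name.

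From the counts, edgeR 4.0.16 in R 4.3.3 was run on the whole table (filterByExpr, TMM, quasi-likelihood test, Benjamini-Hochberg over 17998 genes, threshold 0.05). SE is the absolute log2 fold change over the square root of F. FPKM was computed here from counts, gene lengths and library totals. DESeq2 1.42.0, other scalings, no filter, a replicate block and libraries left out were alternatives. The script was tested on simulated data. The biological coefficient of variation was 15.0%, the detection floor was 3 counts, and no libraries were merged (lowest chi-square between a pair, 5.01 per gene). Cluster sums carry no test.

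Members and gene lists were chosen with earlier results of these data known. Named genes are those called among members or the regulator, partner and relative lists, the C-type members, *Mettl3* and the 3 members with the highest FPKM per cluster. *Pcdhb6*, *Pcdhb15*, *Pcdhb16*, *Pcdhb19*, *Pcdhb21*, *Pcdhb22*, *Pcdhga7*, *Pcdhga11*, *Pcdhgb1*, *Pcdha8*, the untested members, the other locus genes and the marker genes were named after their values were seen. *Zfp274* of the silencing list was not matched in the table. Sequences of the members are not shown. The single-cell data and MeRIP-seq of the study were not analysed here.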

Additional observations from a re-analysis of the deposited data

Results flagged for a closer look

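In groups of 4 libraries, a library far from the others was looked for by the gap to its nearest neighbour over the range of the group (Dixon's 95% critical value for 4 samples). Of 62 groups looked at, 4 were beyond it, where chance gives about 3.1. *Pcdhgc4* had a log2 CPM of 4.92 in *Mettl3*-CKO replicate 2, against 4.67 to 4.70 in the other *Mettl3*-CKO libraries. *Pcdhb21* had 3.84 in *Mettl3*-CKO replicate 1, against 3.67 to 3.69. *Ret* had 5.31 in *Mettl3*-CKO replicate 1, against 5.53 to 5.56. *Taf7*, between the beta and gamma clusters, had 5.50 in control replicate 1, against 4.86 to 4.92 in the other controls.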

How the results depend on the processing

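The 1 member called lower became 2 with DESeq2, 0 with every gene that had a count (5 at an unadjusted p under 0.05 in edgeR) and 0 to 4 when a library was left out. The 4 were *Pcdhb18*, *Pcdhga7*, *Pcdhgb6* and *Pcdhgc3*, without control replicate 1. In the main fit *Pcdhga7* had a log2 fold change of -0.32 (adjusted p = 0.259, edgeR). Over all genes, 729 were called lower in the main fit, 1019 with DESeq2 and 819 with every gene that had a count. With a library left out, 185 (without *Mettl3*-CKO replicate 1) to 1289 (without control replicate 1) of all genes were called lower. Without control replicates 1 and 4 together, an alternative added after seeing the data, the 1 called was *Pcdhgb6*. Members called higher stayed at 0 in every alternative run, DESeq2 included, with 1 to 3 at an unadjusted p under 0.05 in edgeR. Of all genes, 1168 were called higher in the main fit and 509 to 1882 with a library left out. The sign turned for *Pcdhac1*, whose log2 fold change was between -0.12 and 0.20 with a library left out, and for *Pcdhac2*, between -0.10 and 0.083, and 0.067 without control replicates 1 and 4 together. The cause was not tested. The summed log2 ratios moved by less than the spread between libraries in all 39 alternatives. For 2 of the 53 tested members the interval reached past 2-fold, so that a change of that size could not be seen or set aside.

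With the replicate number as a block, 0 members were called lower (4 at an unadjusted p under 0.05, edgeR), and *Pcdhb18* had an adjusted p of 0.0632. Over all genes, 660 were called lower with the block. Deviations from the group means correlated between same-numbered libraries at -0.11, 0.22, -0.11 and 0.25 for replicates 1 to 4, where the highest correlation with another number was 0.15, 0.13, 0.26 and 0.03. Replicates 2 and 4 thus correlated best with their own number and replicates 1 and 3 did not, so the numbers were not taken as pairs.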
